A study of Homo sapiens and Mus musculus with 36 samples.

Results

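DNA replication genes were followed across 13 comparisons in 3 cell lines: 39 genes picked by symbol, with mouse spelling in the mouse line, of 26868 genes in any of the 10 human tables and 16699 in any of the 3 mouse tables. All 39 members had values in all 13 tables. They were sorted by role into 12 helicase genes, 4 origin-loading genes, 8 polymerase and primase genes, 6 clamp and clamp-loader genes, 3 lagging-strand and single-strand genes, 4 nucleotide-supply genes and 2 chromatin-assembly genes. The series holds 36 RNA-seq libraries, 2 for each of 18 groups, of the human liver cancer lines HepG2 and Huh7 and the mouse B-lymphoma line WEHI-231. HepG2 cells received 5 µM MS7126, C24, MS7126N1 or MS7126N2, or DMSO as vehicle, for 48 h. In Huh7 the compounds MS7126 and DMSO were given at 5 µM for 24 h according to the Huh7 protocol, whereas the protocol filed with the mouse samples has 48 h, so this time is uncertain. WEHI-231 cells received 1 µM MS8815, EPZ-6438 or MS8815N, or DMSO, for 16 h. The hairpin groups were HepG2 shEZH2, HepG2 shSREBP2 #664, #665 and #667 with HepG2 shControl, and Huh7 shEZH2 with Huh7 shControl. All hairpin groups carried the pLKO.1-puro lentivirus and were selected with puromycin, and the control virus is called an empty vector in one label and a scramble in another.

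MS7126 and MS8815 are PROTACs, molecules that bring a target protein to the cell's degradation machinery, here EZH2, the histone methyltransferase of Polycomb complex PRC2. The series' design names C24 and EPZ-6438 as the matched inhibitors of the enzyme's SET domain, and MS7126N1, MS7126N2 and MS8815N as analogs without PROTAC activity. SREBP2, encoded by SREBF2, is the transcription factor that drives cholesterol synthesis genes. The labels do not tell whether 2 libraries of one group are from different cultures, and the p-values therefore measure a spread between libraries that may be technical.

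Before S phase, ORC, CDC6 and CDT1 load the MCM2-7 ring onto origins, and MCM10, CDC45 and the GINS complex then turn it into the active CMG helicase. Primase and polymerase alpha lay down primers, polymerases delta and epsilon extend them, and RFC loads the PCNA ring that holds a polymerase on its template. RPA coats single-stranded DNA, FEN1 and LIG1 trim and join Okazaki fragments, ribonucleotide reductase (RRM1, RRM2), TYMS and TK1 supply deoxynucleotides, and CAF-1 (CHAF1A, CHAF1B) places histones behind the fork. Many of these genes are transcribed at the G1 to S transition by E2F factors, and they are commonly read as a sign of how many cells are cycling.

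The start regions of the human members were examined for E2F-type letters, because the genes were studied as a group that moves together. RefSeq promoters of GRCh38.p14, 300 bases each, were matched for 34 members, 43 promoters in all, and none was matched for MCM4, MCM5, GINS4, POLD3 or RPA2. The letters TTTCCCGC, TTTCGCGC, TTTGCCGC or TTTGGCGC, on either strand and with overlapping matches counted, were in a promoter of 17 of 34 members, 50%, against 3.99% of 27305 genes of the table. Per promoter the shares were 39.5% of the members' promoters and 3.31% of 35116 promoters. CCAAT, on either strand, was in a promoter of 20 of 34 members, 58.8%, against 39.7% of all genes. Some members passed the test as lower with MS7126 in both liver lines and with MS8815 in WEHI-231. Of these, PCNA, CDT1, MCM3, LIG1, GINS2 and MCM7 held the letters, and POLD1, FEN1, RRM1 and CHAF1A did not. Shown here, on the strand of the gene, are the first 4 of those that held them. Each stretch has 200 bases before the RefSeq start and the first 10 bases from it, and capitals mark the letters searched.
PCNA: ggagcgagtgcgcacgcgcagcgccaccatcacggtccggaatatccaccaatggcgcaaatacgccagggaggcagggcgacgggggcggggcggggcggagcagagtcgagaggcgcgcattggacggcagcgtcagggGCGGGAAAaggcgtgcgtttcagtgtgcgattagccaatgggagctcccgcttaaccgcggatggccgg
CDT1: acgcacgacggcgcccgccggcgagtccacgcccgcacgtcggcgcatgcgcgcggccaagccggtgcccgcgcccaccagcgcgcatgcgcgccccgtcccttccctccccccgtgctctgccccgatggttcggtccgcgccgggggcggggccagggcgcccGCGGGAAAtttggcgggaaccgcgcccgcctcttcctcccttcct
MCM3: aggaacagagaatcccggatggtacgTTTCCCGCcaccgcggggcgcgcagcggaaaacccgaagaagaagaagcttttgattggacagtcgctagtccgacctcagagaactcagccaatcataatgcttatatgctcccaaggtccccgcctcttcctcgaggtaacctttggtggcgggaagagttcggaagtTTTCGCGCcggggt
LIG1: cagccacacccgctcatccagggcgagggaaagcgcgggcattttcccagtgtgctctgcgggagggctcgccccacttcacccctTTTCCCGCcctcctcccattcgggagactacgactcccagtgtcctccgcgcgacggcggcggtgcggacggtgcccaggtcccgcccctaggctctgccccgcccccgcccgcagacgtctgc
The PCNA stretch is chr20:5126613-5126822 on the minus strand, with its match starting at position -59 from the start. The CDT1 stretch is chr16:88803589-88803798 on the plus strand, with its match at position -35. The MCM3 stretch is chr6:52284733-52284942 on the minus strand, with matches at positions -174 and -4. The LIG1 stretch is chr19:48170335-48170544 on the minus strand, with its match at position -114. Under MS7126 the median log2 fold change of members with and without the letters was -0.78 and -0.68 in HepG2 and -0.83 and -0.82 in Huh7, by the authors' deposited tables. In the same order it was -0.76 and -0.67 in HepG2 labelled shEZH2 and -0.39 and -0.31 under #664. The order was reversed in Huh7 shEZH2 (-0.11 and -0.15), #665 (-0.45 and -0.51) and #667 (-0.32 and -0.36). These gaps were not tested. A match is a run of letters and not a measured binding site.

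In 12 of the 13 tables only the authors' comparison was analysed here, a mean normalized count per gene with a log2 fold change over the control and its standard error (SE). Group means given below for these tables were rebuilt from the deposited mean and fold change, with no spread of their own. The summed mean normalized counts of these 12 tables ran from 16686567 to 40979203, and the lowest member mean in any table was 70.5, and all members had an adjusted p in every table but that of C24, where 5 had none. The hepatocyte and B-cell markers went with the named lines. All 9 hepatocyte markers were in every HepG2 and Huh7 table with means of 749 or more. All 7 B-cell markers were in the WEHI-231 tables at 6383 or more, where 1 of the 9 hepatocyte markers was listed, at no more than 5.14. Markers of other lists were found in HepG2 too. LYZ, a T-cell and myeloid list member, had means of 7369 to 75993 there, above some hepatocyte markers. COL1A1, a fibroblast marker, had means of 271 to 812 there. In labelled shEZH2, #664, #665 and #667 COL1A1 was lower at -3.54, -2.70, -1.14 and -1.61 in the authors' deposited tables. EZH2 was lower in Huh7 shEZH2 (log2 fold change -2.65, SE 0.08, edgeR adjusted p = 3.03e-13), and SREBF2 was lower under #664, #665 and #667 at -1.58, -1.08 and -2.35 in the authors' deposited tables. In HepG2, by contrast, EZH2 was higher in the libraries labelled shEZH2 (0.90, SE 0.38, adjusted p = 0.0337 in the authors' deposited table), so the direction of everything reported for those libraries rests on a label that their target gene goes against. Neither gene moved only under its own hairpin. SREBF2 was also lower with MS7126 in HepG2 (-1.01) and Huh7 (-0.39), with MS8815 (-0.55) and in Huh7 shEZH2 (-0.51). It was higher with C24 (0.53). EZH2 was also lower under #664 (-0.43), with MS7126 in Huh7 (-0.46) and with MS8815 (-0.24), in the authors' deposited tables. All 4 HepG2 hairpin groups also stood apart from their shared control in 2 signs of RNA make-up: mitochondrial genes took 22.9%, 15.5%, 19.4% and 16.1% of the normalized counts in labelled shEZH2, #664, #665 and #667, against 5.23% in shControl, and the 5.8S ribosomal RNA entry was higher by 2.35, 1.67, 1.56 and 1.65 on the log2 scale in the authors' deposited tables. In the HepG2 compound comparisons the mitochondrial share was 32.8% to 32.9% with DMSO. It was 29.9% with MS7126, 25.1% with C24, 27.8% with MS7126N1 and 31.8% with MS7126N2. These shares cover 37 mitochondrial genes, against 15 for the hairpins, and their part in the results was not tested.

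**Figure D1:**
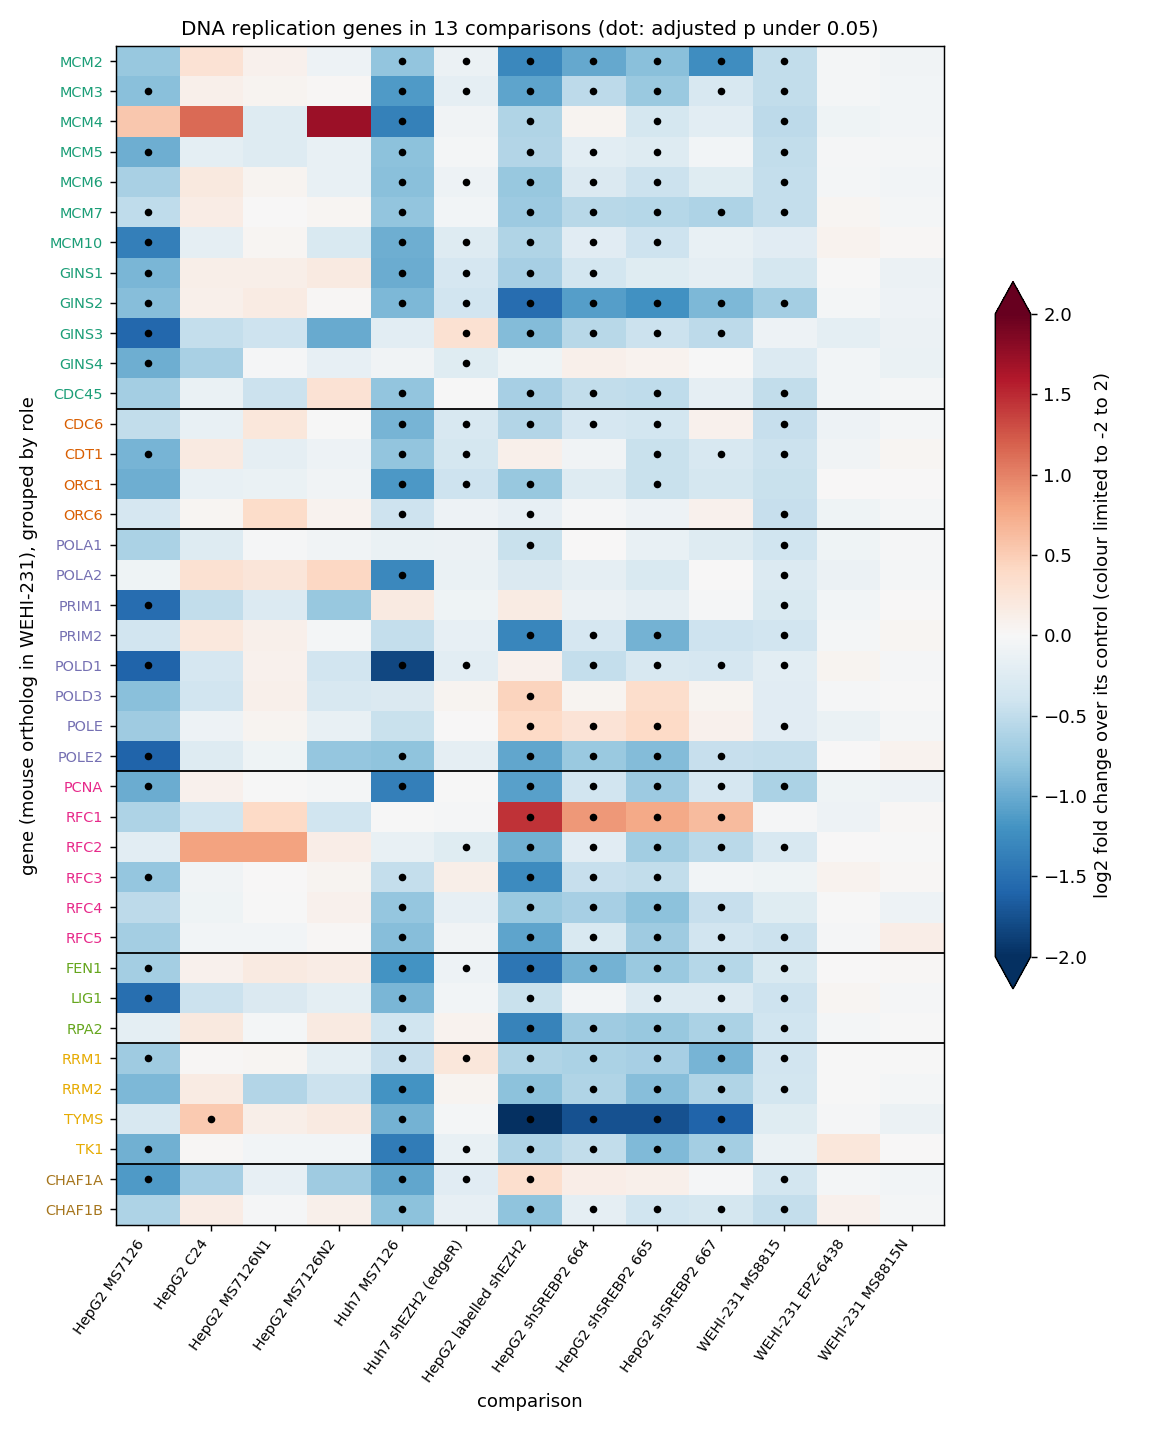
Log2 fold change over the matched control of each of the 39 genes (rows, coloured by role) in the 13 comparisons (columns). Dots mark an adjusted p under 0.05. The columns of HepG2 MS7126, Huh7 MS7126, WEHI-231 MS8815 and the 4 HepG2 hairpins are mostly blue, with 19 to 34 dots each and RFC1 red under the 4 HepG2 hairpins, the Huh7 shEZH2 column is pale, and the columns of C24, MS7126N1, MS7126N2, EPZ-6438 and MS8815N hold 1 dot, at TYMS under C24.

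In HepG2 cells replication genes of all 7 roles were lower with MS7126 than with DMSO. Of the 39 members, 19 were lower and 0 higher at an adjusted p under 0.05 in the authors' deposited table, where 8.06% of 12923 tested genes were called lower and 7.44% higher. Their median log2 fold change was -0.75, against 0.02 over all genes with a mean of at least 100. In bulk RNA, fewer cycling cells and less RNA of these genes per cell cannot be told apart.

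The helicase genes under MS7126 in HepG2 were lower for 8 of 12 members, at a median of -0.84. MCM5, a ring subunit, had a rebuilt mean of 1082 normalized counts with MS7126 and 2124 with DMSO (log2 fold change -0.97, SE 0.16, adjusted p = 5.73e-08 in the authors' deposited table). MCM3, also of the ring, had 1524 with MS7126 and 2727 with DMSO (-0.84, SE 0.15, adjusted p = 3.99e-07 in the authors' deposited table). The 4 GINS subunits were all lower, from -1.57 for GINS3 to -0.85 for GINS2 in the authors' deposited table. MCM4 had the highest value of all members, 0.54 with an SE of 0.58, and did not pass the test (adjusted p = 0.638 in the authors' deposited table). Its SE was 1.82 times the median of genes with a similar mean.

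Among the origin-loading genes, CDT1, which delivers the MCM ring, passed the test at -0.93 (SE 0.18, adjusted p = 5.48e-06) in the authors' deposited table, and CDC6, ORC1 and ORC6 stood at -0.49, -0.98 and -0.34 without passing. Of the polymerase genes 3 of 8 were lower in HepG2 with MS7126. POLD1, the catalytic subunit of polymerase delta, was the lowest member, with a rebuilt mean of 269 with MS7126 and 816 with DMSO (-1.60, SE 0.24, adjusted p = 2.28e-09 in the authors' deposited table). POLE2, a subunit of polymerase epsilon, had 56 with MS7126 and 170 with DMSO (-1.60, SE 0.42, adjusted p = 0.00231 in the authors' deposited table). PRIM1, the catalytic primase subunit, was at -1.52 (SE 0.48, adjusted p = 0.0147 in the authors' deposited table). PCNA had 2056 with MS7126 and 4098 with DMSO (-0.99, SE 0.16, adjusted p = 7.36e-08), and RFC3 was the clamp-loader gene that passed, at -0.78 in the authors' deposited table. LIG1, which seals nicks, was at -1.51 (SE 0.26) and FEN1 at -0.68 (SE 0.23), both lower in the authors' deposited table. TK1, the salvage kinase for thymidine, was at -0.96 (SE 0.15) and RRM1 at -0.71 (SE 0.18), both lower in the authors' deposited table, while TYMS stood at -0.33 (adjusted p = 0.254). CHAF1A was lower at -1.13 (SE 0.28), and CHAF1B stood at -0.62 (adjusted p = 0.111) in the authors' deposited table. Hepatocyte markers moved in the same libraries: 6 of 9 were lower, with summed rebuilt means of 122982 with MS7126 and 251940 with DMSO. COL1A1 (-0.52) and LYZ (-0.71) were lower there too in the authors' deposited table. The part of these markers in the result was not tested.

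In Huh7 cells 30 of the 39 members were lower with MS7126 and 0 higher, where the authors' deposited table called 16.3% of 15956 tested genes lower and 17.5% higher. The members' median was -0.82, against 0.01 over all genes with a mean of at least 100. PCNA fell to a rebuilt mean of 2404 with MS7126, against 6222 with DMSO (-1.37, SE 0.12, adjusted p = 1.29e-30 in the authors' deposited table). All 4 origin-loading, all 3 lagging-strand, all 4 nucleotide-supply and both chromatin-assembly genes were lower. The polymerases were the role with the smallest share called, 3 of 8, at a median of -0.46, though it held the lowest member, POLD1, with 616 with MS7126 and 2178 with DMSO (-1.82, SE 0.22 in the authors' deposited table).

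Of the Huh7 helicase genes 10 of 12 were lower with MS7126. MCM4 had 758 with MS7126 and 1925 with DMSO (-1.34, SE 0.16), and MCM3 was at -1.13 (SE 0.12) in the authors' deposited table. GINS3 and GINS4 did not pass, at -0.21 and -0.07 in the authors' deposited table. ORC1, the large subunit of the origin recognition complex, was at -1.15 (SE 0.23) and CDT1 at -0.79 (SE 0.13), both lower in the authors' deposited table. POLA2, the accessory subunit of polymerase alpha, was lower at -1.29 (SE 0.21), and PRIM1 had the highest value of the members at 0.18 (SE 0.21, adjusted p = 0.572 in the authors' deposited table). RFC5 was lower at -0.85 (SE 0.17), and RFC1, the largest loader subunit, stood at -0.00 (SE 0.22, adjusted p = 0.993 in the authors' deposited table). FEN1 had 3291 with MS7126 and 7501 with DMSO (-1.19, SE 0.12), and LIG1 was at -0.91 (SE 0.15) in the authors' deposited table. TK1 was at -1.40 (SE 0.14), RRM2 at -1.20 (SE 0.17) and TYMS at -0.94 (SE 0.12), all lower in the authors' deposited table. CHAF1A was at -1.05 and CHAF1B at -0.82 in the authors' deposited table. Hepatocyte markers were lower here too, 8 of 9, with summed rebuilt means of 404729 with MS7126 and 691825 with DMSO. Of the fibroblast markers 5 of 6 were listed, with summed rebuilt means of 598 with MS7126 and 452 with DMSO, and COL1A1 (2.36) and PDGFRA (1.36) were higher in the authors' deposited table. Of the T-cell and myeloid markers 4 of 6 were listed, with sums of 2251 with MS7126 and 3272 with DMSO, and CD14 (-1.10) and LYZ (-0.48) were lower in the authors' deposited table. Mitochondrial genes took 3.80% of the normalized counts with MS7126 and 4.92% with DMSO. The part of these in the result was not tested.

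In WEHI-231 cells 27 of the 39 members were lower with MS8815 and 0 higher, where the authors' deposited table called 11.8% of 10671 tested genes lower and 5.34% higher. The shifts were smaller than in the liver lines, with a median of -0.39, and all 39 log2 fold changes were below 0, against a median of -0.05 over all genes with a mean of at least 100. Dose, time, compound and species differ from the liver lines, and the size of the shift was not compared by a test. The 6 ring genes moved almost alike, Mcm2 to Mcm7 lying between -0.52 and -0.47 in the authors' deposited table. Mcm6 had a rebuilt mean of 5778 with MS8815 and 8028 with DMSO (-0.47, SE 0.06, adjusted p = 3.48e-15), and Mcm5 had 6052 and 8468 in the same order (-0.48, SE 0.06) in the authors' deposited table. Gins2 was the lowest member at -0.67 (SE 0.16), and Gins1, Gins3, Gins4 and Mcm10 did not pass, standing between -0.35 and -0.11 in the authors' deposited table.

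Among the other roles under MS8815, Cdt1 was at -0.44 (SE 0.08) and Cdc6 at -0.46 (SE 0.10), both lower in the authors' deposited table. Of the polymerase genes 6 of 8 were lower, among them Pola1 at -0.39 (SE 0.10) and Pold1 at -0.22 (SE 0.06) in the authors' deposited table. Pcna had 4958 with MS8815 and 7659 with DMSO (-0.63, SE 0.06, adjusted p = 1.69e-22), and Rfc5 was at -0.42 (SE 0.07) in the authors' deposited table. Rfc1 had the highest value, -0.02 (SE 0.10, adjusted p = 0.928 in the authors' deposited table). All 3 lagging-strand genes were lower, Lig1 at -0.41 (SE 0.07) and Rpa2 at -0.40 (SE 0.10) in the authors' deposited table. Rrm1 was lower at -0.39 (SE 0.05) and Rrm2 at -0.36 (SE 0.06), whereas Tyms stood at -0.25 (adjusted p = 0.07) and Tk1 at -0.13 (adjusted p = 0.644) in the authors' deposited table. Chaf1a was at -0.37 (SE 0.09) and Chaf1b at -0.48 (SE 0.16), both lower in the authors' deposited table. Mitochondrial genes took 1.48% of the normalized counts with MS8815 and 1.01% with DMSO, and 4 of 7 B-cell markers were lower and 0 higher, in the authors' deposited table. Their part in the result was not tested.

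**Figure D2:**
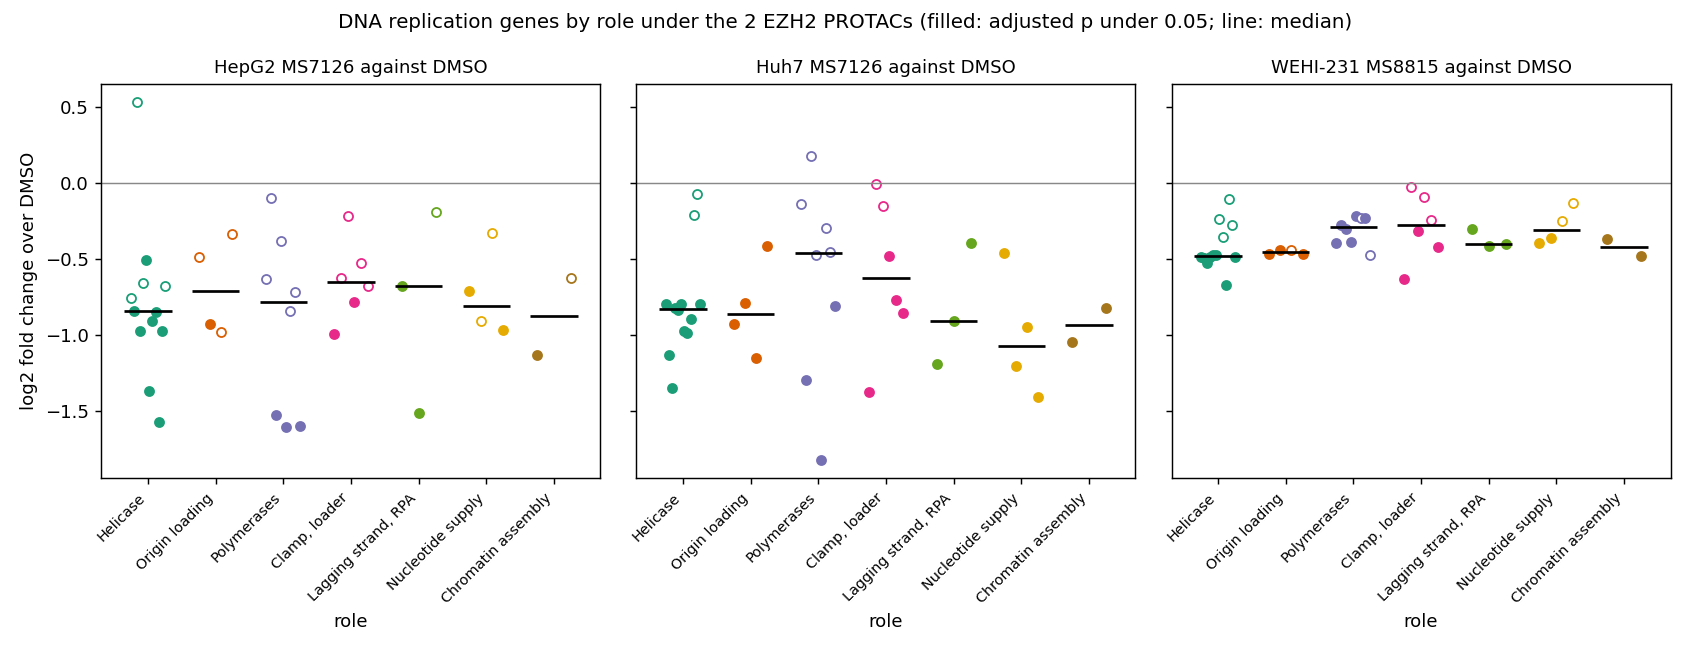
Log2 fold change over DMSO of the members by role, for MS7126 in HepG2, MS7126 in Huh7 and MS8815 in WEHI-231. Each point is a gene, filled where its adjusted p was under 0.05, and a line marks the median of a role. All but 1 point per liver line lie below 0, MCM4 at 0.54 in HepG2 and PRIM1 at 0.18 in Huh7, and all points of WEHI-231 do.

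Set side by side, 16 members were lower with MS7126 in both liver lines, of 19 called in HepG2 and 30 in Huh7. Adding MS8815 in WEHI-231 left 11: the helicase genes MCM3, MCM5, MCM7 and GINS2, and CDT1, POLD1, PCNA, FEN1, LIG1, RRM1 and CHAF1A. POLD3, an accessory subunit of polymerase delta, and RFC1 were called in none of these 3 comparisons. The share of all genes lower in these comparisons together was not counted. With 19, 30 and 27 members called lower in HepG2, Huh7 and WEHI-231, many shared members follow from the separate counts alone. Across the 39 genes the log2 fold changes of MS7126 in HepG2 and Huh7 gave a Pearson r of 0.02 and a Spearman rho of 0.16. This is a description over genes of 2 comparisons with separate libraries. The median SE of the members was 0.27 in HepG2 and 0.17 in Huh7. With errors of that size a low value does not show that the order of the members differs. The difference between the lines itself passed the test for 2 members, where 3.48% of 13150 genes were called lower in HepG2 and 4.07% higher. PRIM1 was at -1.52 in HepG2 and 0.18 in Huh7, a difference of -1.70 (95% interval -2.74 to -0.67, adjusted p = 0.0219). MCM4 was at 0.54 in HepG2 and -1.34 in Huh7, a difference of 1.88 (95% interval 0.71 to 3.05, adjusted p = 0.027). TYMS missed the threshold with a difference of 0.62 (95% interval 0.19 to 1.05, adjusted p = 0.0578). All of these log2 fold changes come from the authors' deposited tables. The times were 48 h in HepG2 and, by the Huh7 protocol, 24 h in Huh7, the uncertain time given above. If it was 24 h, line and time cannot be told apart.

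MCM4 and RRM2 were also the members whose level differed most between the DMSO and shControl libraries of HepG2. On a CPM scale over the summed non-mitochondrial means, MCM4 was at 14.8 with DMSO and 179 with shControl, and RRM2 at 35.1 with DMSO and 209 with shControl, in levels rebuilt from the authors' deposited tables. These are ratios of 0.0824 and 0.168, against a median ratio of 0.737 over the members. In Huh7 the MCM4 level was 94.2 with DMSO and 331 with shControl. The tables were normalized separately and the labels name 2 library kits without assigning them, so these levels carry no test. In the 4 HepG2 compound tables the SE of MCM4 was 1.75 to 4.32 times, and that of RRM2 1.88 to 2.06 times, the median of genes with a similar mean.

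The inhibitors and the inactive analogs, at the same dose and time as their PROTAC, had 1 call among the replication genes. With C24, 1 of the 34 members that had an adjusted p was higher and 0 lower, where the authors' deposited table called 7.02% of 8146 genes, 4.01% lower and 3.01% higher. The gene was TYMS, with a rebuilt mean of 2251 with C24 and 1572 with DMSO (0.52, SE 0.16, adjusted p = 0.0193 in the authors' deposited table). CDC45, ORC1, POLA2, PRIM1 and POLE2 had no adjusted p there. At an unadjusted p under 0.05 C24 had 6 members. MS7126N1 called 0 members (0.085% of genes lower and 0.0744% higher) and MS7126N2 called 0 (0.703% of genes, 0.341% lower and 0.362% higher) in the authors' deposited DESeq2-layout tables, with 0 and 3 members at an unadjusted p under 0.05. EPZ-6438 called 0 (0.122% lower and 0.122% higher) and MS8815N called 0 (0.0689% lower and 0.0501% higher), each with 0 members at an unadjusted p under 0.05 in the authors' deposited tables. The median log2 fold changes of the members were 0.03 with C24, 0.00 with MS7126N1, -0.06 with MS7126N2, -0.04 with EPZ-6438 and -0.04 with MS8815N in the authors' deposited tables. Single genes with a wide error reached further, MCM4 at 1.72 (SE 1.10) and GINS3 at -1.01 (SE 0.49) with MS7126N2 in the authors' deposited table, without passing.

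Whether the PROTACs differed from these compounds was tested directly, in 5 pairs at matched dose and time, as the difference of the 2 log2 fold changes from the authors' deposited tables. The paired tables share their DMSO libraries, and p-values were adjusted over all genes of a pair. MS7126 was lower than C24 for 11 members and higher for 0 where 6.26% of 14335 genes were called, 3.73% lower and 2.53% higher. It was lower than MS7126N1 for 8 and higher for 0 (4.4% of genes, 2.64% lower and 1.76% higher), and lower than MS7126N2 for 6 and higher for 0 (1.86% of genes, 1.24% lower and 0.622% higher). MS8815 was lower than EPZ-6438 for 12 and higher for 0 (4.01% of 13096 genes, 2.87% lower and 1.14% higher), and lower than MS8815N for 12 and higher for 0 (2.55% of genes, 1.89% lower and 0.657% higher). With p-values adjusted over all 5 pairs together, the counts in the same order were 9, 8, 8, 12 and 12. When the shared DMSO libraries were allowed for as a covariance, the counts were 20, 20, 13, 25 and 24.

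The 6 members lower than all 3 comparison compounds in HepG2 were MCM3, MCM5, POLD1, PCNA, LIG1 and TK1. These are all the members that were lower than with MS7126N2. The 3 tests share the MS7126 and DMSO libraries, and the share of all genes lower in all 3 was not counted. PCNA was lower with MS7126 than with C24 by a difference of -1.08 (95% interval -1.47 to -0.70, adjusted p = 2.17e-06), than with MS7126N1 by -0.99 (-1.40 to -0.58) and than with MS7126N2 by -0.95 (-1.39 to -0.51). POLD1 had a difference of -1.27 from C24 (95% interval -1.89 to -0.64), -1.68 from MS7126N1 (-2.37 to -0.996) and -1.23 from MS7126N2 (-1.89 to -0.57). TYMS differed from C24 by -0.84 (95% interval -1.32 to -0.37, adjusted p = 0.0107), while its differences of -0.44 from MS7126N1 (-0.92 to 0.04) and -0.51 from MS7126N2 (-1.11 to 0.08) did not pass. RFC1 did not pass against any of the 3, with differences of -0.22 from C24 (-0.83 to 0.40), -1.03 from MS7126N1 (-1.74 to -0.31, adjusted p = 0.087) and -0.22 from MS7126N2 (-1.09 to 0.64). The intervals against C24 and MS7126N2 span 0 and the one against MS7126N1 does not.

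In WEHI-231 the same 12 genes were lower with MS8815 than with EPZ-6438 and than with MS8815N: Mcm2 to Mcm7, Cdt1, Pcna, Rfc5, Lig1, Rrm1 and Rrm2. Both tests share the MS8815 and DMSO libraries, and the share of all genes lower in both was not counted. Pcna had a difference of -0.54 from EPZ-6438 (95% interval -0.70 to -0.39, adjusted p = 2.04e-09) and -0.52 from MS8815N (-0.69 to -0.35). The 6 ring genes differed from EPZ-6438 by -0.51 to -0.43 and from MS8815N by -0.47 to -0.42. No polymerase gene passed in either pair, the widest gap being Pole2 at -0.48 from EPZ-6438 and -0.54 from MS8815N. Rfc1 differed by 0.08 from EPZ-6438 (95% interval -0.20 to 0.36) and by -0.04 from MS8815N (-0.34 to 0.25), and Tk1 by -0.35 (-0.74 to 0.04) and -0.13 (-0.55 to 0.28) in the same order.

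**Figure D3:**
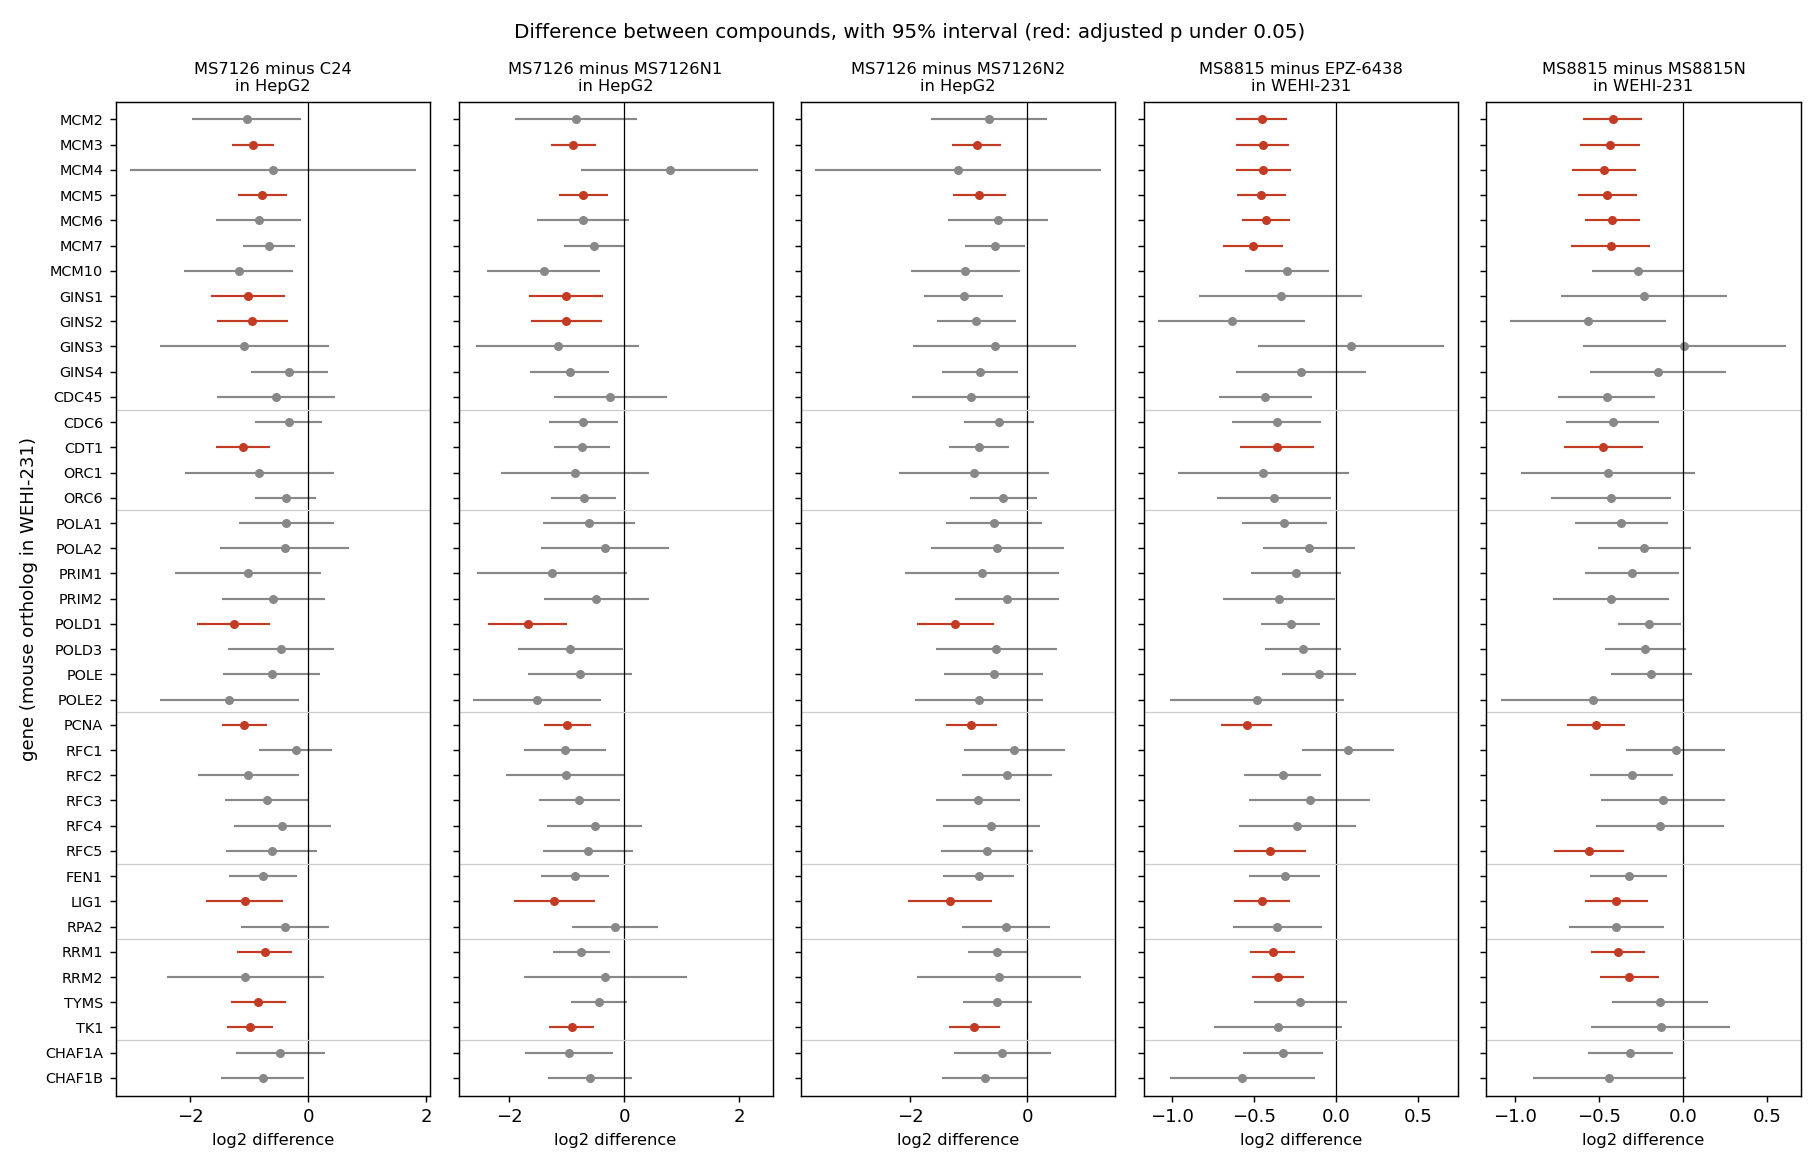
Difference in log2 fold change between a PROTAC and its comparison compound for each gene (points) with its 95% interval (lines), in 5 panels with separate horizontal scales. Red marks an adjusted p under 0.05. All red points lie left of 0, 11, 8 and 6 in the HepG2 panels and 12 in each WEHI-231 panel, and MCM4 in HepG2 has intervals that span more than any other gene.

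In Huh7 cells the EZH2 hairpin went with small shifts of the replication genes. Per-library estimated counts were given for this comparison, and edgeR's quasi-likelihood test on the rounded counts called 15 members lower and 2 higher, with 19.3% of 14581 genes called lower and 19.5% higher. The median log2 fold change of the members was -0.11. The library totals were 11240577 and 11954361 for shEZH2, and 11300078 and 10106231 for shControl. The groups did not overlap in CPM (counts scaled to the size of the library) for 33 members, 28 of them lower in shEZH2, but with libraries this alike the groups did not overlap for 68.6% of all genes.

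Of the origin-loading genes 3 of 4 were lower, at a median of -0.33, the lowest median of the 7 roles. ORC1 had 25.3 and 22.6 CPM in shEZH2, against 34.0 and 29.95 CPM in shControl (log2 fold change -0.42, SE 0.09, edgeR adjusted p = 0.0014). CDT1 had 96.0 and 93.6 CPM in shEZH2, against 121 and 120 CPM in shControl (-0.35, SE 0.04, edgeR adjusted p = 7.53e-06). CDC6 had 66.1 and 73.4 CPM in shEZH2, against 87.6 and 86.5 CPM in shControl (-0.32, SE 0.05, edgeR adjusted p = 0.000237). Both shEZH2 libraries lay below both control libraries for each of these 3 genes.

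Of the helicase genes 7 of 12 were lower in Huh7 shEZH2 and 1 was higher. GINS2 had 48.1 and 45.4 CPM in shEZH2, against 60.2 and 61.6 CPM in shControl (-0.38, SE 0.06, edgeR adjusted p = 8.79e-05). GINS1 had 78.1 and 76.8 CPM in shEZH2, against 93.5 and 103 CPM in shControl (-0.34, SE 0.05, edgeR adjusted p = 9.06e-05). GINS3, of the same complex, went the other way, with 17.3 and 17.6 CPM in shEZH2, against 14.6 and 13.7 CPM in shControl (0.30, SE 0.10, edgeR adjusted p = 0.0321). GINS4 was lower at -0.24 (edgeR adjusted p = 0.0063). The calls of GINS3 and GINS4 rest on edgeR, since the authors' deposited table has adjusted p = 0.261 and 0.0773 for them. Of the ring genes MCM2, MCM3 and MCM6 were lower, from -0.19 to -0.11, and MCM4, MCM5 and MCM7 did not pass, at -0.06 to -0.04.

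The other roles of Huh7 shEZH2 had 1 call each, except nucleotide supply with 1 lower and 1 higher. POLD1 was lower, with 102 and 102 CPM in shEZH2, against 117 and 118 CPM in shControl (-0.20, SE 0.04, edgeR adjusted p = 0.000985). PCNA did not pass, with 280 and 285 CPM in shEZH2 and 285 and 285 CPM in shControl (-0.01, SE 0.03). RFC2 was lower at -0.24 (edgeR adjusted p = 0.00452), FEN1 at -0.10 (edgeR adjusted p = 0.0257), TK1 at -0.15 (edgeR adjusted p = 0.00717) and CHAF1A at -0.22 (edgeR adjusted p = 0.00332). RRM1 was the other gene that was higher, with 142 and 134 CPM in shEZH2, against 120 and 117 CPM in shControl (0.22, SE 0.04, edgeR adjusted p = 0.000607). DESeq2 on the same counts called 10 members and the authors' deposited adjusted p-values called 11, all among the 17 called by edgeR. The deposited adjusted p-values did not call MCM6, GINS3, GINS4, RFC2, FEN1 or TK1. Of the fibroblast markers 4 of 6 were listed, with summed rebuilt means of 1002 in shEZH2 and 311 in shControl and 3 of them higher in the authors' deposited table, and their part was not tested. Of the hepatocyte markers 4 of 9 were lower and 1 higher in the authors' deposited table. The levels of shEZH2 and of MS7126 in Huh7 come from separate tables with separate controls, and their difference was not tested.

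**Figure D4:**
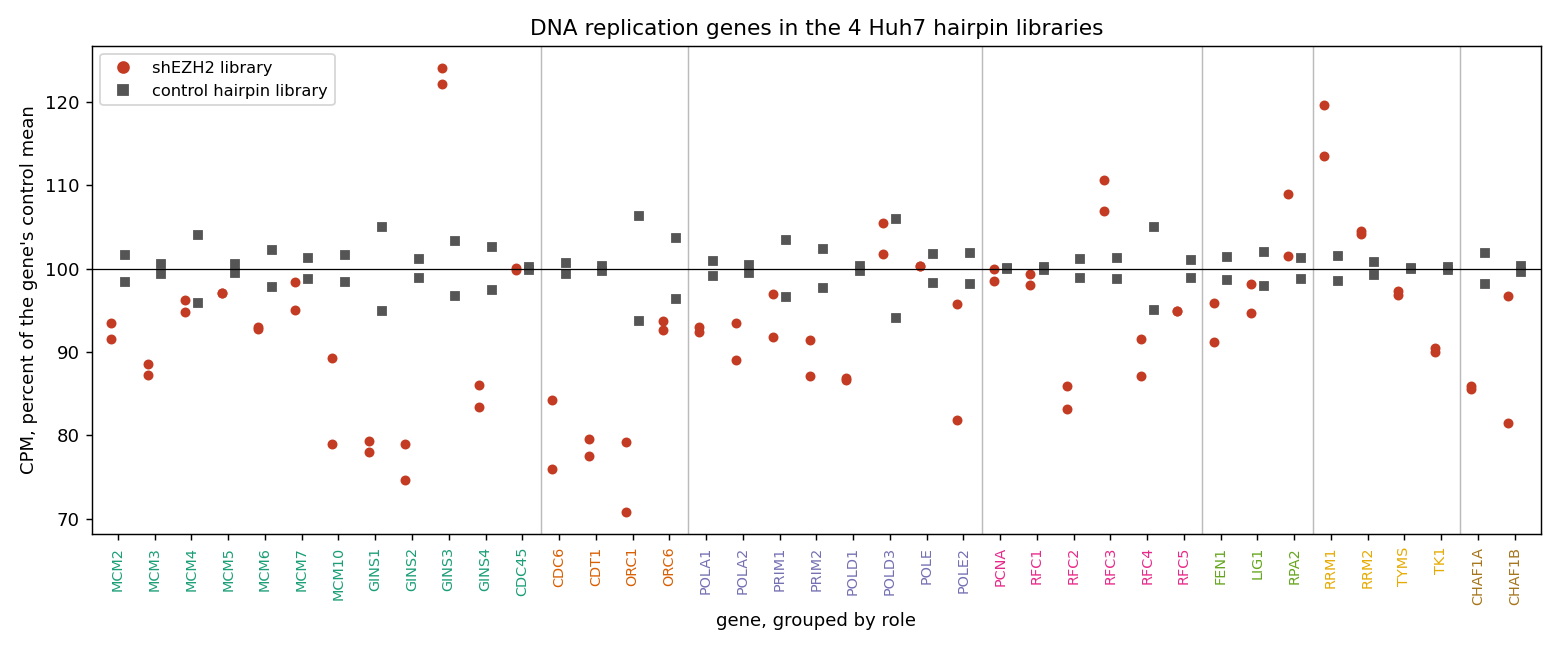
CPM of each member in the 2 Huh7 shEZH2 libraries (circles, left) and the 2 control hairpin libraries (squares, right), as a percent of the gene's control mean. ORC1, GINS2, CDT1, GINS1 and CDC6 lie lowest in the shEZH2 libraries, and PCNA lies at about its control level. GINS3, RRM1, RFC3, RRM2 and RPA2 lie above both control libraries, and of these GINS3 and RRM1 passed the test.

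In HepG2 all 4 hairpin groups had lower replication genes than their shared control. The libraries labelled shEZH2, in which EZH2 itself was higher, had 30 members lower and 4 higher (57% of 17348 genes, 28.6% lower and 28.4% higher in the authors' deposited table). Hairpin #664 had 26 lower and 2 higher (51.7% of genes, 26.8% lower and 24.9% higher), #665 had 29 lower and 2 higher (38.8% of genes, 20% lower and 18.7% higher) and #667 had 20 lower and 1 higher (37.8% of genes, 19.3% lower and 18.6% higher) in the authors' deposited tables. The medians over the members were -0.67, -0.34, -0.44 and -0.32 in labelled shEZH2, #664, #665 and #667, against medians over all genes with a mean of at least 100 of -0.10, -0.06, -0.07 and -0.05. These 4 comparisons share the same 2 control libraries, and the counts are not independent of each other. The mitochondrial share, the 5.8S entry and the COL1A1 level given above moved with all 4 groups as well. Hepatocyte markers were 6, 7, 2 and 5 of 9 higher and 2, 1, 4 and 2 lower in the same order in the authors' deposited tables. The part of these in the results was not tested.

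TYMS, the thymidylate synthase, was the lowest member under every HepG2 hairpin. Its rebuilt mean was 884 in labelled shEZH2, against 5581 in shControl (-2.66, SE 0.07, adjusted p listed as 0 in the authors' deposited table). Under #664 it was 2245, against 7485 in shControl as scaled in that table (-1.74, SE 0.05, adjusted p = 4.71e-263 in the authors' deposited table). Under #665 and #667 it was at -1.74 (SE 0.42) and -1.60 (SE 0.36), SEs 4.05 and 3.41 times the median of genes with a similar mean in the authors' deposited tables. RRM2 was lower in all 4, from -0.85 to -0.59, as were RRM1, from -0.93 to -0.59, and TK1, from -0.88 to -0.49, in the authors' deposited tables. All 4 nucleotide-supply genes were thus lower under each of the 4 hairpins.

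RFC1 went the other way in all 4. It had 7268 in labelled shEZH2, against 2677 in shControl (1.44, SE 0.06, adjusted p = 1.78e-133), and was higher at 0.86, 0.76 and 0.64 under #664, #665 and #667 in the authors' deposited tables. The smaller loader subunits did the reverse: RFC2, RFC4 and RFC5 were lower in all 4, and RFC3 in all but #667, where it stood at -0.05 (adjusted p = 0.842 in the authors' deposited table). PCNA had 9529 in labelled shEZH2, against 20295 in shControl (-1.09, SE 0.05), and was lower at -0.39, -0.73 and -0.34 under #664, #665 and #667 in the authors' deposited tables. POLE, the catalytic subunit of polymerase epsilon, was higher in labelled shEZH2 (0.39), #664 (0.27) and #665 (0.40), while its partner POLE2 was lower in all 4, from -1.04 to -0.46, in the authors' deposited tables.

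Among the helicase genes, GINS2 was lower under all 4 hairpins, with 766 in labelled shEZH2, against 2197 in shControl (-1.52, SE 0.09), and -1.11, -1.20 and -0.90 under #664, #665 and #667 in the authors' deposited tables. MCM2 was lower at -1.30, -1.03, -0.84 and -1.25 and MCM3 at -1.05, -0.53, -0.74 and -0.32 in labelled shEZH2, #664, #665 and #667 in the authors' deposited tables. GINS4 passed in none, between -0.09 and 0.10 in the authors' deposited tables. FEN1 was lower in all 4, at -1.44 in labelled shEZH2 and from -0.94 to -0.57 under the SREBP2 hairpins, and RPA2 at -1.34 and from -0.75 to -0.63, in the authors' deposited tables. CDT1 stood at 0.10 in labelled shEZH2 (adjusted p = 0.168) and was lower under #665 at -0.45 and #667 at -0.32 in the authors' deposited tables. PRIM2, the regulatory primase subunit, was lower in labelled shEZH2 (-1.30), #664 (-0.34) and #665 (-0.95) and did not pass under #667 (-0.41, adjusted p = 0.0569) in the authors' deposited tables. CHAF1A was higher in labelled shEZH2 at 0.34 and CHAF1B was lower at -0.80 in the authors' deposited table. Across the 3 SREBP2 hairpins 18 members were lower in all, with TYMS, GINS2, MCM2, FEN1, RPA2 and RRM1 among them, and 9 in none. The 3 comparisons share their control libraries, so these calls are not independent of each other. The share of all genes lower in all 3 was not counted.

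Replication genes outside the 39 were counted over a list of 50 further genes, beside the shares of all genes called in the same table. Under MS7126 in HepG2, 14 of 49 tested were lower and 4 higher (8.06% and 7.44% of all genes), with the histone chaperone NASP at -1.27 (SE 0.20), by the authors' deposited table. In Huh7 with MS7126, 23 of 50 were lower and 7 higher (16.3% and 17.5% of all genes), with the histone chaperone ASF1B at -1.10 (SE 0.12) and UHRF1, which recognises newly replicated methylated DNA, at -1.57 (SE 0.19) in the authors' deposited table. With MS8815, 28 of 50 were lower and 1 higher (11.8% and 5.34% of all genes), with Uhrf1 at -0.55 (SE 0.05) in the authors' deposited table. C24 had 4 of 40 lower and 0 higher (4.01% and 3.01% of all genes). The 4 were NASP at -0.59 (SE 0.10), TOP1 at -0.55 (SE 0.14), CLSPN at -0.58 (SE 0.17) and RECQL4 at -0.72 (SE 0.21) in the authors' deposited table. MS7126N1, MS7126N2, EPZ-6438 and MS8815N had 0 called. The shares of all genes called there were 0.159%, 0.703%, 0.243% and 0.119% in the same order, so counts of 0 were near the background. In Huh7 shEZH2, edgeR called 18 lower and 6 higher (19.3% and 19.5% of all genes). In labelled shEZH2, #664, #665 and #667, 29, 24, 24 and 15 were lower and 13, 13, 10 and 5 higher. The shares of all genes were 28.6%, 26.8%, 20% and 19.3% lower and 28.4%, 24.9%, 18.7% and 18.6% higher in the same order, so the higher calls in labelled shEZH2, #664 and #665 were near the background. Among the lower genes was DTYMK, the thymidylate kinase next to TYMS in the pathway, at -1.13, -1.37 and -1.34 under #664, #665 and #667 in the authors' deposited tables.

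A list of 20 E2F and S-phase regulators was read beside them. In HepG2 with MS7126, 5 were lower and 1 higher (8.06% and 7.44% of all genes). SKP2, a subunit of the ubiquitin ligase that removes p27, was lower there. Its rebuilt mean was 190 with MS7126 and 564 with DMSO (-1.57, SE 0.24 in the authors' deposited table). In Huh7 with MS7126, 12 were lower and 2 higher (16.3% and 17.5% of all genes). SKP2 was at -1.69 (SE 0.15), the E2F partner TFDP1 at -1.49 (SE 0.13) and E2F2 at -2.40 (SE 0.31), by the authors' deposited table. With MS8815, 9 of 19 tested were lower and 0 higher (11.8% and 5.34% of all genes). Ccne1, a cyclin of the G1 to S transition, led them at -0.51 (SE 0.08), by the authors' deposited table. In Huh7 shEZH2 the list had 4 lower, near the background of 19.3% of all genes, and 9 higher, against 19.5%, by edgeR. There SKP2 was lower at 230 and 225 CPM in shEZH2, against 346 and 362 CPM in shControl, and CCNE1 was higher at 27.5 and 30.1 CPM in shEZH2, against 20.4 and 17.0 CPM in shControl. The HepG2 hairpins had 12, 13, 9 and 13 lower and 4, 5, 1 and 2 higher in labelled shEZH2, #664, #665 and #667. The shares of all genes were 28.6%, 26.8%, 20% and 19.3% lower and 28.4%, 24.9%, 18.7% and 18.6% higher. The higher calls were thus near or below the background. CDK2 was lower in all 4, from -1.27 to -0.80, in the authors' deposited tables.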

How the data were processed

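RNA-seq kits were TruSeq v2 and NEBNext Ultra II, per the labels' protocols, which do not assign them to libraries. Per the submitters' processing notes, the tools were STAR 2.4.2 and Salmon, on GRCh38 and mm10. For strand and settings, nothing is stated. Per the file headers, each deposited table gives a mean normalized signal (counts scaled by the authors), log2 fold change, SE, test statistic (a score), p-value and adjusted p, as DESeq2 writes them. For Huh7 shEZH2 the authors also deposited estimated counts per library; these were rounded, and edgeR 4.0.16 in R 4.3.3 gave the quasi-likelihood test (TMM scaling, filterByExpr), leaving out 20 rows named by dates. The log2-scale normalized values the authors deposited there were not used.

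Group means were rebuilt from the deposited mean and fold change, assuming equal groups. Differences between comparisons were divided by the root of both squared SEs added (normal, two-sided), with Benjamini-Hochberg adjustment over genes with a mean of at least 10 in both tables. The threshold was an adjusted p of 0.05. Alternatives were DESeq2 1.42.0, a threshold of 0.01, filters, centring on genes with a mean of at least 100, covariance of shared DMSO libraries, a replicate block and leaving out libraries. Tests were checked on simulated data whose planted changes were larger than those of the members. The simulated differences between comparisons had no shared DMSO libraries. The checks therefore do not show how the tests do on shifts of the size reported. All 39 members could be named; values were given for the 2 smallest adjusted p of a role and the highest and lowest fold change, and for up to 4 genes of each further list by smallest adjusted p. Other members given with values were chosen after their values were seen. The members, roles and lists were chosen with earlier results of these data known.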

Additional observations from a re-analysis of the deposited data

Results flagged for a closer look

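The difference in response to MS7126 between the liver lines passed the test for 2 of 39 members, a share below the 7.54% of all genes that passed it. PRIM1, the catalytic primase subunit, was at -1.52 in HepG2 and 0.18 in Huh7, a difference of -1.7 on the log2 scale in the authors' deposited tables. MCM4 differed the other way, at 0.54 in HepG2 and -1.34 in Huh7, a difference of 1.88. The adjusted p of the difference was 0.0219 for PRIM1 and 0.027 for MCM4. The time was 48 h in HepG2 and, by the Huh7 protocol, 24 h in Huh7, which is uncertain. If it was 24 h, line and time cannot be told apart. PRIM1 in HepG2 rests on rebuilt means of 36 with MS7126 and 105 with DMSO, and MCM4 in HepG2 on 255 and 176 in the same order, with an SE 1.82 times the median of genes with a similar mean.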

How the results depend on the processing

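Of 68 alternatives, 12 concern the counts of 0 for MS7126N1, MS7126N2, EPZ-6438 and MS8815N, which stayed at 0 and which a stricter threshold could not change. Of the other 56, 48 left the count of members called within 1.5 times its value. With the shared DMSO libraries allowed for as a covariance, the differences called numbered 20, 20 and 13 for MS7126 against C24, MS7126N1 and MS7126N2, and 25 and 24 for MS8815 against EPZ-6438 and MS8815N, a setting whose construction gives a smaller error. At an adjusted p under 0.01 C24 had 0 members called. In Huh7 shEZH2, where edgeR called 17, DESeq2 called 10 and the authors' deposited adjusted p-values called 11; the cause was not tested. Leaving out 1 library there gave 12 to 16. Same-numbered Huh7 libraries did not deviate together (correlation -0.02 over 9627 genes), which gives no sign that the numbers pair them. The spread between these libraries was close to that of counting alone, so a weak pairing could be missed. A replicate block gave 17 members called. Centring, which for the 5 compound pairs was chosen after seeing the data, gave 21 members for MS8815 in place of 27, 17 for #667 in place of 21, and 29 lower and 6 higher for labelled shEZH2, whose all-gene median was -0.10. With 2 libraries a group, precision is low for the members with the lowest means, down to 70.5 in HepG2 with MS7126.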
